A study of Rattus norvegicus with 9 samples.

Results

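Synaptic vesicle and SNARE mRNAs are classed as presynaptic because the proteins they encode act in axon terminals, and here their signals were read in pools of cut dendrites. The genes were Syp, Sv2a, Syn1, Syn2, Vamp2, Snap25, Stx1a, Syt1 and Syt4, picked by name with earlier results of these data known. The rule that gathers their probe sets uses no measured value. All 9 had at least 1 probe set that names no other gene in the platform's gene table, 15 probe sets in all, out of 31042 probe sets and 14217 genes measured. No filter on low values was used, so all 9 genes and all 15 probe sets entered every comparison. The samples were 9 pools of dendrites from Sprague-Dawley rat hippocampal neurons, plated at embryonic day 19, kept in culture for 14 days and labelled as pyramidal neurons. There were 3 pools each of 100, 200 and 400 dendrites, with 1 Affymetrix array per pool, and the pools differed in no stated treatment or genotype. Per the study's methods the cell body was removed with a glass micropipette before the processes were collected, and axons could not be told from dendrites by their shape. The study expected most of the RNA to come from dendrites, with a small axonal part, and allowed for some RNA of cell bodies. Each pool held processes collected across several cells, and the labels call the 3 pools of a size biological replicates. They do not say whether these came from separate cultures or animals, so p-values measure the spread between these pools.

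Synaptic vesicles store neurotransmitter and fuse with the plasma membrane when calcium enters the terminal. Fusion is driven by a complex of 3 SNARE proteins, in which Vamp2 (synaptobrevin 2) sits on the vesicle and Stx1a (syntaxin 1A) and Snap25 sit on the plasma membrane. Synaptotagmins such as Syt1 sense calcium, synapsins (Syn1, Syn2) tether vesicles to each other and to actin, and Syp (synaptophysin) and Sv2a are abundant membrane proteins of the vesicle. Some of these proteins also act outside the terminal: SNAREs serve receptor insertion in dendrites, and Syt4 is found on dendritic vesicles as well as in axons.

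A signal is a log2 RMA value, which depends on the affinity of the probes as well as on RNA, so a higher signal of 1 gene than another does not mean more RNA. Levels are also given by rank: a percentile is the position of a gene's median rank over the 9 arrays among the 14217 genes, where 50 is the middle gene and 95 marks the top 5%. Ranks carry the same probe affinity, so the order of genes below is an order of signal and not of RNA, and it can differ between probe sets of 1 gene. A gene with several probe sets takes their median on each array. Array medians ran from 7.46 to 7.53, and the mean correlation of an array with the others ran from 0.749 (replicate 1 of the 400-dendrite pools) to 0.839. The 3′ minus 5′ difference of the control probe sets, a sign of RNA length, ran from -0.43 to 2.41 for actin and from 0.84 to 2.99 for GAPDH. High rank is not proof of expression: of 55 measured genes of other organs, whose median percentile was 31.1, 3 lay in the top 5%, among them the pancreatic enzymes Ctrb1 at 98.0 and Cela1 at 97.0. Pyramidal neuron markers had a median percentile of 75.6 (13 genes, 3 in the top 5%), from the transcription factors Tbr1 at 1.39 and Emx1 at 29.4 up to Neurod2 at 99.9. Interneuron markers had one of 49.1 (12 genes, 0 in the top 5%), with the GABA-synthesising enzymes Gad1 and Gad2 at 10.8 and 12.5, the peptide Sst at 66.2 and the calcium-binding protein Calb2 at 88.4.

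The vesicle and SNARE mRNAs were spread over nearly the whole range of signal, from the 14.6th percentile (Syt1) to the 98.2nd (Syp). Their median percentile was 84.5, against 50 over all genes, with 8 of the 9 above the middle gene and 1, Syp, in the top 5%. In descending order the percentiles were 98.2 for Syp, 93.9 for Snap25, 88.0 for Vamp2, 87.1 for Sv2a, 84.5 for Stx1a, 64.8 for Syn1, 60.0 for Syn2, 53.8 for Syt4 and 14.6 for Syt1. Neighbours in this order were not separated beyond the spread over arrays, apart from Syp above Snap25, whose percentiles on single arrays ran from 96.3 to 99.6 and from 78.7 to 95.6, and Syt4 above Syt1, whose percentiles ran from 46.9 to 68.5 and from 4.14 to 38.5. Single probe sets did not keep this order of genes: among all probe sets, 1369482_a_at of Syn2 stood at 12.9, below Syt1 at 20.1, 1371160_at of Vamp2 stood at 30.2, and 1375877_at of Syt4 stood at 73.5, above both Syn1 probe sets (59.8 and 72.1). In such pools, fewer processes that hold an mRNA and less of that mRNA per process cannot be told apart. With the pools of 100 dendrites alone the median percentile was 65.5, against 85.5 in pools of 200, 83.3 in pools of 400 and 84.5 over all 9 arrays. In pools of 100 the middle place passed from Stx1a, which stood at 62.9 there, to Syn1 at 65.5, and no other gene fell by as much as Stx1a.

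**Figure D1:**
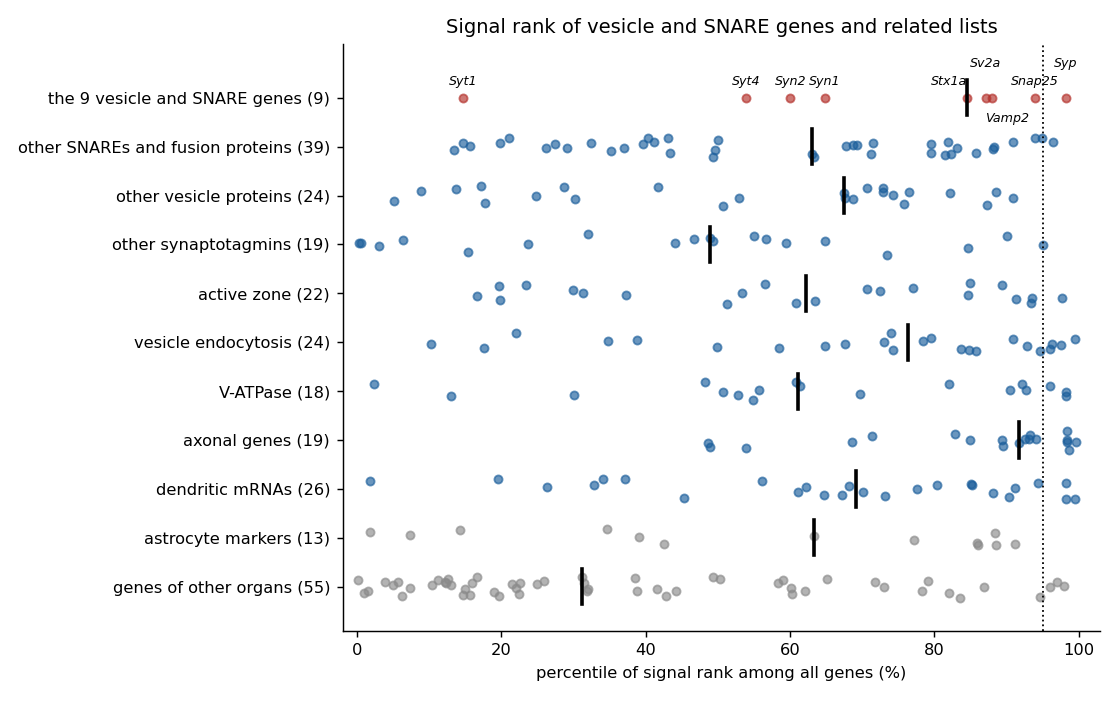
Percentile of signal rank over 9 arrays (x axis, %) for the 9 vesicle and SNARE genes (red, named) and for lists of related genes (blue), astrocyte markers and genes of other organs (grey), with the number measured in parentheses. Each point is a gene, the black bar is the list's median and the dotted line marks the top 5%; the 9 genes have a median of 84.5, the axonal genes of 91.7 and the genes of other organs of 31.1.

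Among the vesicle membrane proteins, Syp gave 10.62, 11.08 and 10.69 in the pools of 100 dendrites, 11.22, 11.31 and 11.94 in the pools of 200 and 11.78, 11.90 and 12.45 in the pools of 400. All pools of 200 and all pools of 400 lay above all pools of 100, while the pools of 400 and 200 overlapped. The means were 10.80 ± 0.25, 11.49 ± 0.39 and 12.04 ± 0.36 (SD, n = 3 each), and Syp was in the top 5% of genes on 9 of 9 arrays. Sv2a, a transporter-like glycoprotein of the vesicle and the target of the antiepileptic drug levetiracetam, gave 9.45, 8.70 and 9.47 in pools of 100, 9.61, 8.91 and 9.11 in pools of 200 and 8.90, 8.91 and 9.10 in pools of 400. Its groups overlapped in every pairing, and its 9 values spanned less than 1 log2 unit (9.13 ± 0.31, SD, n = 9).

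The synapsins gave different pictures with different probe sets. For Syn1, probe set 1390196_at gave 8.02, 6.77 and 8.18 in pools of 100, 8.45, 8.11 and 8.48 in pools of 200 and 8.43, 8.96 and 8.35 in pools of 400, so that all pools of 400 lay above all pools of 100. The other Syn1 probe set, 1369251_a_at, gave 8.07, 7.16 and 8.26 in pools of 100, 8.30, 7.87 and 7.55 in pools of 200 and 8.01, 7.12 and 7.79 in pools of 400, with overlap in every pairing. Replicate 2 of the 100-dendrite pools was the lowest of all 9 on 1390196_at and the second lowest on 1369251_a_at, and the mean of both stood at 6.97 there, against 7.99 to 8.37 on the other 8 arrays.

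For Syn2, 1370431_at stood at the 88.6th percentile of probe sets (9.11 ± 0.76, SD, n = 9), 1382850_at at the 61.0th (8.02 ± 0.38) and 1369482_a_at at the 12.9th (6.10 ± 0.80). The brightest, 1370431_at, gave 9.32, 7.83 and 8.74 in pools of 100, 9.47, 9.58 and 9.42 in pools of 200 and 7.99, 9.74 and 9.91 in pools of 400. All its pools of 200 lay above all its pools of 100, and its pools of 400 held both its highest values and its second lowest. The dimmest, 1369482_a_at, ran from 5.31 to 7.22 with overlap throughout, and it reached 7.22 in replicate 3 of both the 100- and the 400-dendrite pools. The middle one, 1382850_at, gave 8.72, 7.99 and 7.79 in pools of 100, 7.46, 7.89 and 7.74 in pools of 200 and 8.33, 8.31 and 7.90 in pools of 400. Pools of 400 lay just above pools of 200 on this probe set and overlapped with pools of 100.

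The vesicle SNARE Vamp2 had the widest split. Probe set 1369974_at was in the top 5% of probe sets on 9 of 9 arrays, with 11.24, 11.46 and 11.23 in pools of 100, 11.20, 11.45 and 11.74 in pools of 200 and 11.37, 11.89 and 11.70 in pools of 400. It was also the steadiest of the 15 probe sets (11.48 ± 0.25, SD, n = 9). Probe set 1371160_at stood at the 30.2nd percentile, with 6.34, 6.89 and 7.80 in pools of 100, 7.24, 7.71 and 6.47 in pools of 200 and 5.80, 6.69 and 6.43 in pools of 400. Groups overlapped in every pairing on both probe sets. The gene's place at 88.0 is thus the middle of a bright and a dim probe set that are 4.66 ± 0.77 log2 units apart (SD, n = 9), and neither of them gave a value near 9.15, the mean assigned to the gene.

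The plasma membrane SNAREs were both in the upper part of the range. Snap25, which has 1 probe set, gave 9.55, 10.52 and 9.08 in pools of 100, 10.22, 8.70 and 10.12 in pools of 200 and 10.22, 9.65 and 10.04 in pools of 400. Its highest value was in a pool of 100 and its lowest in a pool of 200, so its groups overlapped in every pairing (9.79 ± 0.60, SD, n = 9). Stx1a, as the median of 2 probe sets, gave 7.30, 8.84 and 7.98 in pools of 100, 9.02, 7.91 and 9.17 in pools of 200 and 9.34, 8.96 and 9.33 in pools of 400. All pools of 400 lay above all pools of 100, and the other pairings overlapped. Its percentile was 62.9 in pools of 100, 85.5 in pools of 200 and 88.9 in pools of 400.

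Taken singly, the 2 Stx1a probe sets did not separate the pools. Probe set 1387360_at gave 7.51, 9.23 and 7.31 in pools of 100, 9.29, 8.38 and 10.18 in pools of 200 and 8.74, 9.61 and 10.14 in pools of 400. Probe set 1387359_at gave 7.08, 8.44 and 8.66 in pools of 100, 8.75, 7.45 and 8.16 in pools of 200 and 9.95, 8.30 and 8.52 in pools of 400. On each of them at least 1 pool of 400 lay below the highest pool of 100, so that the lack of overlap appears only in their median.

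Of the synaptotagmins, Syt1, the fast calcium sensor of release and among the abundant proteins of the vesicle, gave 6.05, 6.39 and 6.36 in pools of 100, 7.17, 5.49 and 6.79 in pools of 200 and 6.68, 5.98 and 5.53 in pools of 400 on its only probe set. It lay below the middle gene on all 9 arrays, and its mean over arrays was 6.27 ± 0.57 (SD, n = 9). Whether the probe set responds to Syt1 RNA in this preparation cannot be read from these arrays, since no sample with known Syt1 RNA was used here. Syt4, a synaptotagmin induced by activity that binds calcium poorly, was at the 73.5th percentile on 1375877_at, with 9.70, 8.64 and 8.22 in pools of 100, 8.58, 8.38 and 8.87 in pools of 200 and 8.32, 8.39 and 7.76 in pools of 400. Its second probe set, 1387662_at, was at the 39.0th percentile, ran from 6.47 to 7.502 and lay below the middle probe set on all 9 arrays. Groups overlapped in every pairing on both Syt4 probe sets.

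**Figure D2:**
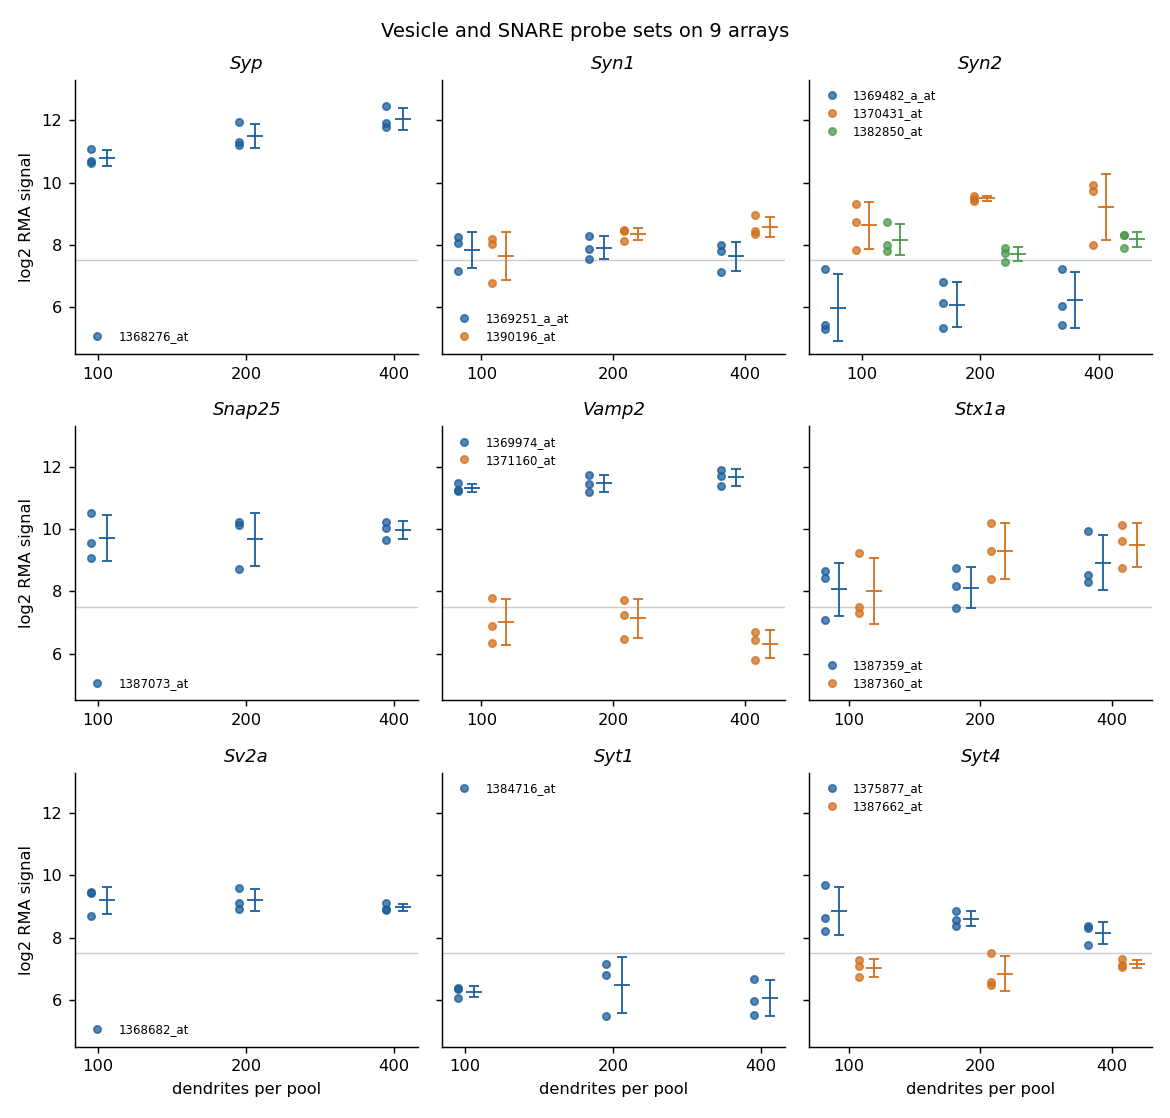
Log2 RMA signal (y axis) of the 15 probe sets of the 9 genes by number of dendrites per pool (x axis); points are the 3 arrays of a pool size, the bar beside them is the mean with SD, and the grey line marks the median signal of the arrays. Syp lies higher in every pool of 400 (11.78 to 12.45) than in any pool of 100 (10.62 to 11.08), and the 2 Vamp2 probe sets stay 3.43 to 5.57 log2 units apart.

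Pool sizes were compared here, a comparison that the study's methods do not describe, and no vesicle or SNARE gene passed the threshold between them. Differences were tested with limma across all 14217 genes, and an adjusted p under 0.05 was reached by 0% of genes and 0% of probe sets in each of the 3 pairwise contrasts and in the slope per doubling of dendrites, so a count of 0 among the 9 genes is what all genes gave. At an unadjusted p under 0.05, 2 of the 9 genes were higher and 0 lower in pools of 400 against pools of 100, beside 1.48% of all genes that were higher (342 genes in either direction). The same 2 genes passed unadjusted for a rising slope, beside 1.65% of all genes. None of the 9 passed unadjusted in either direction for 200 against 100 or for 400 against 200. For 200 against 100, 1.51% of all genes (214) were higher and 217 genes were lower. For 400 against 200, 1.45% (206) were higher and 121 genes were lower.

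The 2 genes were Syp and Stx1a. Syp was 1.25 log2 units higher in pools of 400 than in pools of 100 (95% interval 0.44 to 2.06, unadjusted p = 0.00561, adjusted p = 0.999 by limma), and its slope was 0.62 per doubling of dendrites (0.25 to 1.004, unadjusted p = 0.00357). Between pools of 200 and 100 it differed by 0.69 (-0.11 to 1.50), and between pools of 400 and 200 by 0.56 (-0.25 to 1.36). Stx1a was 1.17 higher in pools of 400 than in pools of 100 (0.14 to 2.20, unadjusted p = 0.0298, adjusted p = 0.999 by limma), with a slope of 0.58 (0.10 to 1.07, unadjusted p = 0.0228). Without replicate 1 of the 100-dendrite pools the unadjusted p of Stx1a was 0.128, the highest of its 19 alternatives, whereas that of Syp stayed between 0.0013 and 0.0303 in all 19.

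Counts of pools that do not overlap tell the same values in another way. Syp and Stx1a were the 2 of 9 genes whose pools of 400 all lay above their pools of 100, as did 3.67% of all genes, and 0 of 9 lay below, as did 2.58% of all genes. By probe set, 1368276_at of Syp and 1390196_at of Syn1 did so, 2 of 15, beside 3.21% of all probe sets that lay above and 2.96% that lay below. For 200 against 100, 1 gene, Syp, lay above without overlap (4.05% of all genes did), as did the probe sets 1368276_at of Syp and 1370431_at of Syn2 (3.85% of all probe sets). For 400 against 200, 1 gene, Syn2, and its probe set 1382850_at did (3.59% of genes and 3.3% of probe sets). Means in the order 100, 200, 400 from low to high were found for Syp and Stx1a alone among the 9 genes, beside 16.6% of all genes, and for 6 of the 15 probe sets, beside 15.8% of all probe sets. Those 6 belong to Syp, Syn1 (1390196_at), Syn2 (1369482_a_at), Vamp2 (1369974_at) and Stx1a (both).

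The other 7 genes had differences between pools of 400 and 100 that were small beside their intervals. Syn1 differed by 0.37 (-0.50 to 1.23), Snap25 by 0.25 (-0.84 to 1.35), Syn2 by -0.05 (-0.86 to 0.77) and Vamp2 by -0.18 (-0.98 to 0.62). Syt1 differed by -0.21 (-1.25 to 0.84), Sv2a by -0.23 (-1.04 to 0.57) and Syt4 by -0.29 (-1.03 to 0.46). These intervals are wide enough to hold differences of about the size measured for Stx1a in Syn1, Snap25 and, downwards, Syt1. Of the 9 genes 4 were higher and 5 lower, and their median difference was -0.05, beside 0.02 over all genes (7317 higher, 6900 lower).

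**Figure D3:**
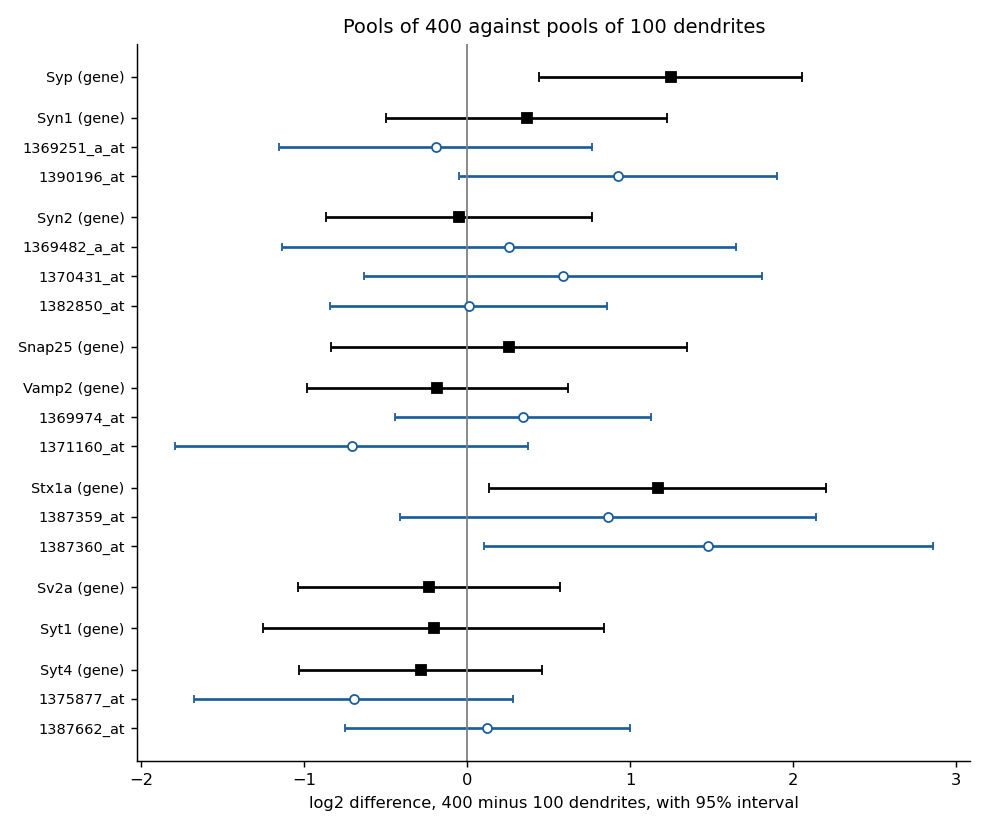
Difference in log2 RMA signal between pools of 400 and pools of 100 dendrites (x axis) for each gene (black squares) and for each probe set of genes that have several (blue circles), with 95% intervals from limma. The gene intervals of Syp (0.44 to 2.06) and Stx1a (0.14 to 2.20) lie above 0 and those of the other 7 genes include 0.

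The estimates of Vamp2, Syn1 and Syt4 differed in sign between their probe sets, while those of Stx1a and Syn2 were above 0 on each. Of these intervals only that of 1387360_at lay above 0. For Vamp2 the bright probe set was 0.34 higher in pools of 400 than in pools of 100 (-0.44 to 1.13) and the dim one was 0.71 lower (-1.79 to 0.38), so that their gap averaged 4.30 in pools of 100, 4.32 in pools of 200 and 5.35 in pools of 400. For Syn1, 1390196_at was 0.92 higher (-0.05 to 1.90) and 1369251_a_at differed by -0.19 (-1.15 to 0.77). For Syt4, 1375877_at differed by -0.70 (-1.67 to 0.28) and 1387662_at by 0.12 (-0.75 to 0.997). For Stx1a, 1387360_at was 1.48 higher (0.10 to 2.85, unadjusted p = 0.0376 by limma over all probe sets) and 1387359_at was 0.86 higher (-0.41 to 2.14). The 3 Syn2 probe sets differed by 0.59, 0.25 and 0.01, all higher in pools of 400, while the array-wise median of the 3 differed by -0.05.

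The gap between the brightest and dimmest probe sets of a gene can be set against the 4525 genes with more than 1 probe set, whose median gap was 1.54 log2 units. That of Vamp2 (4.66) stood at the 94.8th percentile of those genes, that of Syn2 (3.01 ± 1.01, SD, n = 9) at the 81.8th, that of Syt4 (1.52 ± 0.76) at the 49.5th, that of Stx1a (0.57 ± 1.16) at the 19.3rd and that of Syn1 (0.40 ± 0.66) at the 13.5th. Small mean gaps did not mean that probe sets moved together. Over the 9 arrays the 7 pairs of probe sets of 1 gene had Pearson correlations from -0.59 to 0.24, and none passed an exact permutation test (two-sided, unadjusted p = 0.0927 to 0.698, adjusted over the 7 pairs p = 0.649 to 0.698). Spearman correlations ran from -0.57 to 0.25 (exact permutation, adjusted p = 0.791 to 0.948). The lowest was that of the Syn2 pair 1369482_a_at and 1382850_at (r = -0.59), and the highest that of the Stx1a pair (r = 0.24). The probe sets read different stretches of a transcript, and where they lie was not analysed here.

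The correlations among the 9 genes over the arrays were spread around 0. Over their 36 pairs the median Pearson correlation was -0.12 (range -0.59 to 0.80), with 14 positive, and the median within pool sizes was -0.087. With all other genes the median was 0.00065 (quartiles -0.26 and 0.27). By exact permutation (two-sided) 3 of the 36 pairs had an unadjusted p under 0.05 and 0 an adjusted one. The share of all gene pairs under that unadjusted threshold was not computed, and pairs that share a gene are not independent. The 3 pairs are therefore described below without being read as more than the threshold gives by chance.

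The closest pair was Syp and Stx1a (r = 0.80, exact permutation p = 0.00969, adjusted p = 0.348, and rho = 0.75, exact permutation p = 0.0255, adjusted p = 0.757). Without the 2 arrays farthest from the median of Syp r was 0.69, and within pool sizes it was 0.55. Snap25 and Stx1a, which bind each other in the SNARE complex, had r = 0.71 (exact permutation p = 0.029, adjusted p = 0.348, and rho = 0.63), with 0.60 without 2 arrays and 0.85 within pool sizes. Vamp2, the third protein of that complex, had r = -0.59 with Snap25 and r = -0.26 with Stx1a. That Vamp2 value is the middle of a steady bright probe set (1369974_at, SD 0.25) and a more variable dim one (1371160_at, SD 0.66). These probe sets had r = -0.30 with each other, and their separate correlations with Snap25 and Stx1a were not tested. Syn1 and Sv2a had r = 0.64 (exact permutation p = 0.0281, adjusted p = 0.348, and rho = 0.57), which was 0.24 without 2 arrays and thus rested on those arrays, and 0.88 within pool sizes.

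**Figure D4:**
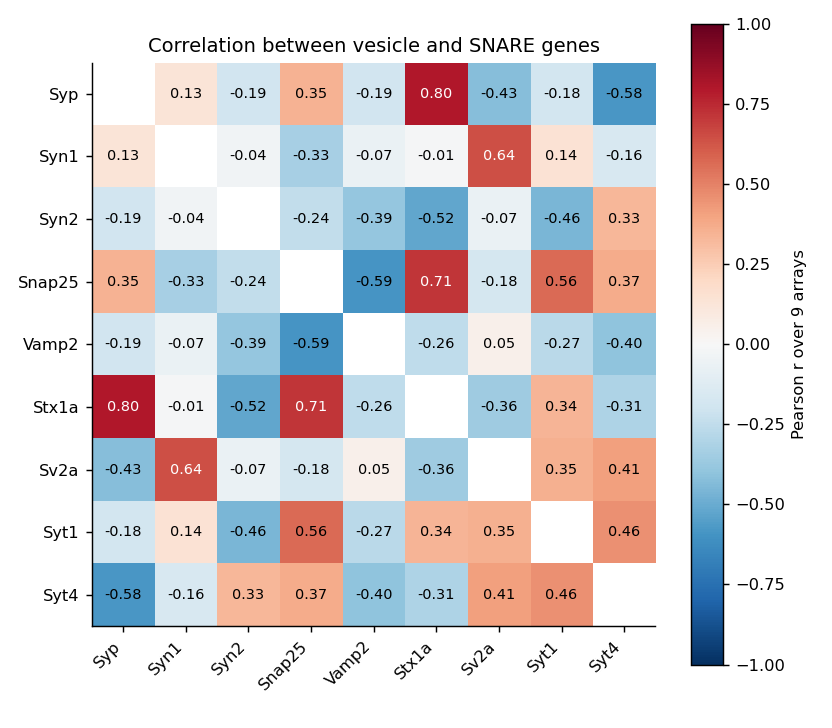
Pearson correlation of log2 RMA signal over 9 arrays for each pair of the 9 genes (both axes list the genes; the colour scale runs from -1 to 1). The values run from -0.59 (Snap25 and Vamp2) to 0.80 (Syp and Stx1a), and 14 of 36 are above 0. The Vamp2 value is the median of 2 probe sets that did not move together (r = -0.30).

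For each gene the 2 genes most like it in Pearson correlation over the 9 arrays were noted, as a description without a test, since they were picked as the highest of all genes. For Syp they were Gpr19 (r = 0.94) and Gstm7 (0.91), for Sv2a Ube4a (0.93) and Acsm3 (0.93), for Syn1 Acacb (0.93) and Larp1 (0.91), and for Syn2 Hoxa10 (0.97) and Tbc1d12 (0.95). For Snap25 they were the neurofilament light chain Nefl (0.97) and the clathrin adaptor subunit Ap2a2 (0.96), for Vamp2 Upp1 (0.94) and Fam229a (0.92), and for Stx1a Uqcc5 (0.96) and Gas7 (0.95). For Syt1 they were Mb21d2 (0.92) and Gprc5b (0.92), and for Syt4 Cdc14b (0.95) and Patz1 (0.94). None of the genes so picked was itself among the 9.

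The spread between replicate pools differed among the 9 genes. The SD within pool sizes was 0.34 for Syp, 0.33 for Sv2a, 0.67 for Snap25 and 0.62 for Syt1, which have 1 probe set each, beside a median of 0.61 over the 9692 genes with 1 probe set. It was 0.24 for Syt4, 0.33 for Vamp2, 0.35 for Syn2, 0.41 for Syn1 and 0.61 for Stx1a, which are medians of several probe sets, beside a median of 0.47 over the 4525 such genes. The 15 single probe sets had a median SD of 0.50, beside 0.62 over all probe sets, and 8 of the 15 lay below the latter. They ran from 0.23 for 1369974_at of Vamp2 to 0.91 for 1369482_a_at of Syn2. By pool size the median SD of the 15 probe sets was 0.73 in pools of 100, 0.39 in pools of 200 and 0.36 in pools of 400, beside 0.53, 0.49 and 0.57 over all probe sets at these sizes. With 3 arrays per size, these SDs were not tested.

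Related mRNAs of the vesicle cycle were spread as widely. Other SNAREs and fusion proteins (39 of 44 measured) had a median percentile of 63.0, with 21 above the middle gene. The endosomal syntaxin Stx7 stood highest at 96.5, followed by Stx3 at 94.8, which serves membrane insertion in dendrites, and the tomosyn Stxbp5 (13.5) and the Munc18 relative Stxbp3 (14.7) stood lowest. Other vesicle proteins (24 of 26) had a median of 67.5, from Synpr (synaptoporin) at 5.06 and the GABA transporter of vesicles Slc32a1 at 8.85 up to the chaperone Dnajc5 at 88.5 and Syngr3 at 90.8. Other synaptotagmins (19 of 21) had the lowest median of the vesicle lists, 48.9, with 8 above the middle gene, from Syt16 at 0.27 to the extended synaptotagmin Esyt2 at 95.02.

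Active zone proteins (22 of 25) had a median of 62.1, from Unc13c at 16.6 to the priming factor Unc13b at 97.6. Genes of vesicle endocytosis (24 of 27) had a median of 76.3 with 4 in the top 5%, among them the phosphatase Synj1 at 99.5 and the clathrin adaptor subunit Ap2m1 at 97.5. Subunits of the V-ATPase, which acidifies vesicles and other organelles (18 of 18), had a median of 61.1 with 3 in the top 5%. Axonal genes of the cytoskeleton and surface (19 of 19) had a median of 91.7 with 5 in the top 5%. They ran from Uchl1 at 48.7 and Cntn2 at 48.9 up to Mapt (tau) at 98.6 and Stmn1 at 99.6. The mRNAs known in dendrites (26 of 27) had a median of 69.1 with 3 in the top 5%, from Fmr1 at 1.84 and Homer1 at 19.5 up to Nrgn at 99.4. The median of 84.5 for the 9 genes lay between the medians of those 2 lists, whose ranges overlap.

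Between pools of 400 and 100 dendrites no gene of these lists passed by limma. At an unadjusted p under 0.05 none of the other vesicle proteins, other synaptotagmins, active zone proteins or V-ATPase subunits differed. Of the other SNAREs and fusion proteins 1 was higher, Stx8 (1.16, unadjusted p = 0.0215), with 23 higher and 16 lower in all and a median difference of 0.07. Of the endocytosis genes 1 was higher, Ap2m1 (0.99, unadjusted p = 0.0351), and 2 were lower, among them the scaffold Itsn1 (-1.11, unadjusted p = 0.019). Over all genes 1.48% were higher and 0.928% lower at that threshold. Of the axonal genes 1 was higher, the neurofilament subunit Nefm (2.46, unadjusted p = 0.00759), with 12 higher and 7 lower and a median difference of 0.18, and of the dendritic mRNAs 2 were higher, Arc (1.20, unadjusted p = 0.00539) and Cnih2 (1.13, unadjusted p = 0.0486).

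Markers of other cells stood beside these values as follows. Astrocyte markers (13 of 15) had a median percentile of 63.3 with 0 in the top 5%, and they ran from the connexin Gjb6 at 1.84 and the water channel Aqp4 at 7.39 up to Gfap at 86.0, the glutamate transporter Slc1a3 at 88.5 and S100b at 91.1, 7 of the 13 lying above the middle gene. Their mean signal lay between 7.63 and 8.38 in pools of 100, 7.12 and 8.21 in pools of 200 and 7.33 and 8.39 in pools of 400. Between pools of 400 and 100, 6 astrocyte markers were higher and 7 lower. Vascular and fibroblast markers (15 of 15, median 32.0) lay between 7.75 and 8.68 in pools of 400, against 7.55 to 7.92 in pools of 100. Of these markers 11 were higher and 4 lower in pools of 400. At an unadjusted p under 0.05, 1 was higher and 0 lower, beside 1.48% and 0.928% of all genes. It was the collagen Col3a1 (1.76 higher, unadjusted p = 0.00397 by limma), which had the smallest p of its list. The endothelial gene Vwf stood at 99.8 in that list and Tek, an endothelial receptor, at 8.47. Microglia markers (14 measured) had a median of 33.2 and oligodendrocyte lineage markers (13 measured) one of 57.5, each with 0 in the top 5%. The 4 nuclear RNAs measured had a median of 86.0, with Xist at 10.7, Miat at 78.6, Snhg11 at 93.4 and Meg3 at 97.3. Axonal genes lay between 9.45 and 9.86 in pools of 400, against 9.33 to 9.54 in pools of 100. The part of other cells, of cell bodies, of axons and of RNA quality in the levels of the 9 genes was not tested.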

How the data were processed

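Dendrite RNA was amplified by the authors through repeated rounds of linear (aRNA) amplification and hybridised to Affymetrix rat arrays. The deposited table holds a log2 signal per probe set, which the authors made with RMA 2.0, a method that corrects background, equalises the arrays and summarises probes. They were used as deposited, and the centring and scaling of the study's methods are not in them. The number of arrays limits the precision. Of 31099 probe sets, 57 controls were set aside, and 20826 of the rest named 1 gene, 436 several and 9780 none. Symbols of 20758 were updated through their Entrez gene ID. A gene's value is the median of its own probe sets. Positions are not given, since no genome of the array's build was used here. Mouse arrays were not used here.

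Pool sizes were compared with limma 3.58.1 in R 4.3.3, in 1 model of all 9 arrays, two-sided, with Benjamini-Hochberg adjustment over all probe sets or genes. The fits were tested on simulated data. Correlations over arrays were tested by exact permutation (362880 orders) in Python 3.11.15 (pandas 2.3.3, numpy 2.4.6, scipy 1.17.1, with matplotlib 3.10.9 for plots). Named genes are the 9 genes and their probe sets, per list the 2 highest and 2 lowest by percentile and the 2 of smallest p, and per gene the 2 most correlated genes, and not all of those were printed. The members and lists were chosen with earlier results of these data known. Alternatives were another centring and scaling, quantile normalization, other variance settings, other rules for a gene's value, and leaving out each array.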

Additional observations from a re-analysis of the deposited data

How the results depend on the processing

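In every alternative run, 0 of the 9 genes and 0 of the 15 probe sets had an adjusted p under 0.05, as did 0 of all probe sets and genes. The smallest adjusted p found for a member was 0.870 (limma). That search covered the 3 pairwise contrasts of genes, the slopes of Syp and Stx1a, and 400 against 100 for probe sets. At an unadjusted p under 0.05, 687 of 31042 probe sets and 342 of 14217 genes differed between pools of 400 and 100. Same-numbered pools did not deviate together (r from -0.20 to 0.087 over 9 pairs, against -0.19 to 0.22 over 18 pairs of other numbers). No pairing by replicate number was seen, but the labels do not say whether same-numbered pools shared a culture, so it is not excluded. With the replicate block the counts of calls were 0, as in every other setting. The differences of Syp and Stx1a kept their direction in all 19 alternatives, with unadjusted p under 0.05 in 19 for Syp and in 14 for Stx1a (0.00792 to 0.128). The median percentile of the 9 genes (84.5) was 65.5, 85.5 and 83.3 in pools of 100, 200 and 400 alone. For their probe sets among all probe sets it was 73.5. The causes were not tested. Ranked anew within the genes above the median mean signal, the median was 71.6. That rank is on a different scale from that among all genes, and it leaves out Syt1 and so covers 8 of the 9. Of 287 gene values under other settings 273 kept their direction, as did 242 of 261 with an array left out. Those that turned follow. With the probe set of highest mean, Syn2 differed by 0.59 (400 minus 100), 0.86 (200 minus 100) and -0.28 (400 minus 200), Vamp2 by 0.34 and 0.19 (400 minus 100 and 400 minus 200) and Syn1 by 0.23 (400 minus 200, also 0.23 without suffixed probe sets). With the mean of probe sets Syn2 differed by 0.28 and 0.16, and without suffixed probe sets by 0.30 and 0.20 (400 and 200 minus 100). Array weights gave 0.0079 for Syn2, -0.0037 for 1382850_at (400 minus 100) and -0.065 for Sv2a (200 minus 100), and centring -0.0015 for Sv2a. Leaving out 1 array, 400 minus 100 ran from -0.022 to 0.61 for Syn1, from -0.21 to 0.26 for Syn2, from -0.063 to 0.66 for Snap25, from -0.37 to 0.016 for Vamp2 and from -0.51 to 0.061 for Syt1. By probe set it ran from -0.53 to 0.069 for 1369251_a_at, from -0.24 to 0.87 for 1369482_a_at, from -0.18 to 0.29 for 1382850_at and from -0.030 to 0.25 for 1387662_at. For 200 minus 100 it ran from -0.0036 to 0.62 for Syn1, from -0.35 to 0.45 for Snap25, from -0.046 to 0.32 for Vamp2, from -0.25 to 0.16 for Sv2a and from -0.13 to 0.71 for Syt1. For 400 minus 200 it ran from -0.085 to 0.10 for Syn1, from -0.20 to 0.56 for Snap25 and from -0.20 to 0.083 for Syt4. With 3 arrays per size, unadjusted limma intervals for 400 minus 100 reached a median of 0.99 log2 units to either side over all genes. Larger differences did not pass the adjusted test either. Syp differed by 1.25 and Stx1a by 1.17 between these pools, each with an adjusted p of 0.999 by limma.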
